A study of Mus musculus with 8 samples.

Results

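The genes described here encode the enzymes, transporters and regulators of glycolysis and of the pentose phosphate pathway, a list of 35 mouse genes. Members were found by symbol. Of the 35 genes, 30 had a probe set annotated with that gene alone, out of 22180 genes with such a probe set, and for a gene with several the probe set with the highest mean over the 8 arrays was taken. Aldoa and Tkt occurred only on probe sets annotated with several genes, and Gpi1, Eno1 and G6pdx matched no annotated probe set, so these 5 were not analysed here. Pfkm, Eno2 and Pfkfb4 had mean levels under the filter of 3.90 on the log2 scale, the 40th percentile of genes, and 27 members were tested.

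The study compared CD4+ T cells that had expanded together in the same hosts. CD62L+ CD4+ T cells of C57BL/6 mice, either wt and carrying CD45.1 or Irak1-/- and carrying CD45.2, were injected in equal numbers into Rag1-/- mice, which have no T or B cells of their own and develop colitis after the transfer. At 14 days the CD3+ CD4+ cells of each CD45 type were sorted from mesenteric lymph nodes, with a stated purity above 99.5%, and their RNA was measured on Affymetrix arrays, 4 of wt and 4 of Irak1-/- cells. Each replicate experiment pooled 2 recipients and supplied 1 wt and 1 Irak1-/- array under a shared batch label, so the 8 arrays form 4 pairs; the CD45 type differed with the genotype in every pair, and their parts in a difference cannot be told apart. IRAK1 is a kinase that relays signals of interleukin-1 family receptors and Toll-like receptors. Neither the kind of Irak1 allele nor the ages of the mice are stated. Irak1 itself read 6.39 to 7.16 on wt and 6.61 to 6.997 on Irak1-/- arrays, a difference of 0.07 (SE 0.129, adjusted p = 0.953); which exons were deleted is not stated, so its probe set does not check the genotype.

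Glycolysis splits glucose into pyruvate in the cytosol and yields ATP without oxygen. The pentose phosphate pathway branches off after the first phosphorylation, where its oxidative arm makes NADPH and its non-oxidative arm makes ribose for nucleotides. When T cells are activated they take up more glucose and pass much of the pyruvate on to lactate, and effector cells keep this programme while they divide. The transcription factors HIF and MYC induce many of these genes.

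Array medians lay between 4.25 and 4.31. The T cell identity of the samples was clear on every array: the 9 measured genes of a CD4 T cell marker list had mean levels of 10.37 to 10.44 on wt and 10.21 to 10.44 on Irak1-/- arrays. Cd3d, a chain of the T cell receptor complex, was at 11.28 ± 0.0972 (SD, n = 4) on wt and 11.24 ± 0.0209 on Irak1-/- arrays. Over the genes tested, the Irak1-/- array of replicate 3 correlated with the others at 0.957 to 0.970, while the other 7 correlated among themselves at 0.976 to 0.986. In bulk RNA, fewer cells of a kind and less RNA per cell cannot be told apart.

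Few genes of any kind were called different between Irak1-/- and wt cells, and no glycolytic or pentose phosphate gene tested was among them. None of the 27 members was called higher or lower by limma at an adjusted p under 0.05, against 0.0751% of the 13308 genes tested, of which 9 were higher and 1 lower. At an unadjusted p under 0.05 there was 1 member, Pdk1, or 3.70% of members against 6.70% of all genes. In 0 of 27 members did the 4 Irak1-/- values lie apart from the 4 wt values, which held for 3.04% of all genes. No member was higher in all 4 pairs and none was lower in all 4. The share of all genes with 4 such pairs was not counted. The fitted differences, Irak1-/- minus wt on the log2 scale, ran from -0.10 to 0.34, with 14 above and 13 below 0 and a median of 0.02, beside a median of -0.03 over all genes.

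**Figure D1:**
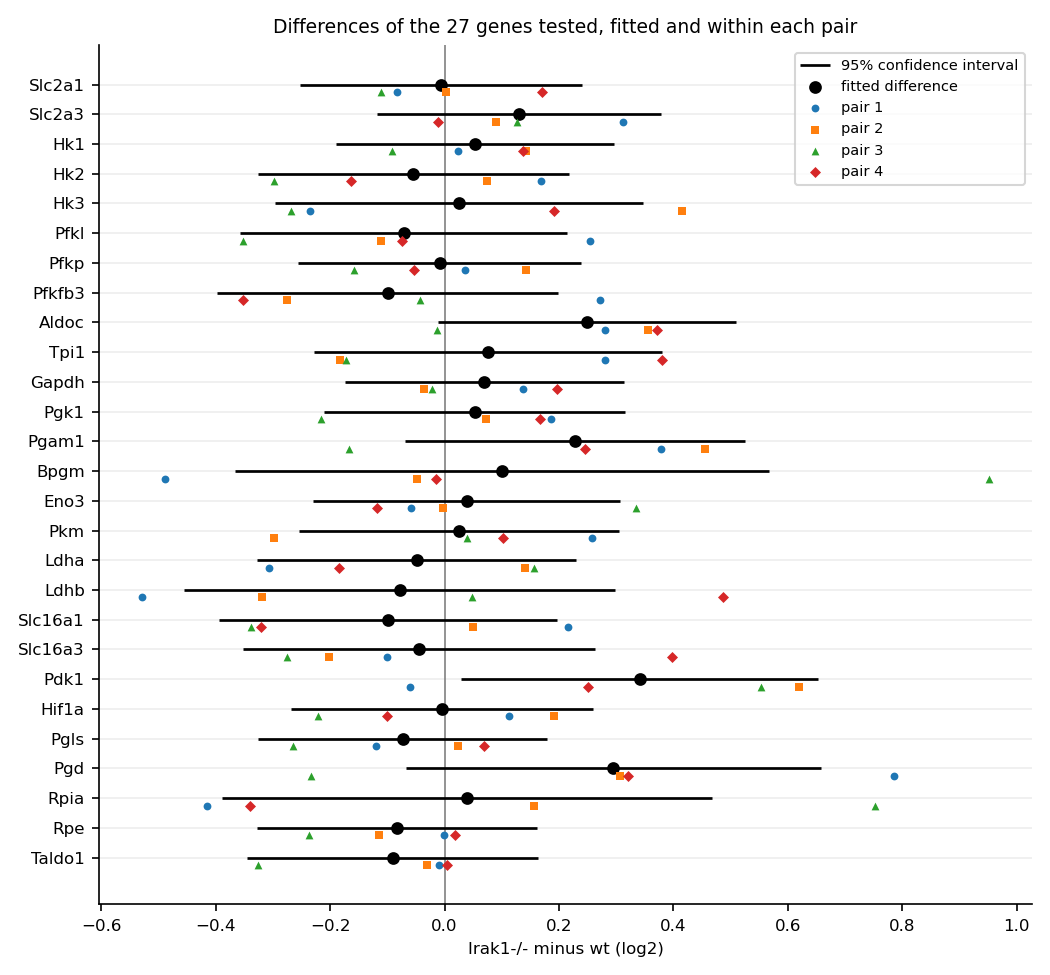
Differences between Irak1-/- and wt arrays for the 27 genes tested, on the log2 scale. Black points are fitted differences with 95% confidence intervals, and coloured symbols are the 4 pairs; the interval of Pdk1 alone lies wholly to one side of 0, from 0.03 to 0.65, and no gene has all 4 pairs on the same side.

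For several members the interval leaves room for small changes only. The unadjusted 95% confidence interval lay within 1.25-fold in both directions for 8 members, namely Slc2a1, Hk1, Pfkp, Gapdh, Pgk1, Eno3, Pkm and Hif1a. For Slc2a1, the main glucose transporter of activated T cells, it ran from 0.840-fold to 1.18-fold, and for Pkm, which encodes pyruvate kinase, from 0.838-fold to 1.24-fold. For Hif1a, the oxygen-regulated subunit of HIF, it ran from 0.830-fold to 1.20-fold. It lay within 1.5-fold for 25 members, and reached 1.57-fold for Pdk1 and 1.58-fold for Pgd. These intervals hold for the probe set used. Of the 8 members, other probe sets gave mean log2 differences of 0.29 for Slc2a1, 0.06 and 0.28 for Gapdh and 0.05 for Hif1a.

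The promoters shown are those of Pdk1, Aldoc, Pgd and Pgam1, the 4 members with the smallest p, and of Pgk1, a classical HIF target. They are shown because, like most of the list, each holds ACGTG or GCGTG, though not all hold the same motif. The sequences are the 250 bases before the RefSeq start farthest upstream, on the strand of the gene, build GRCm38.p6. They lie at chr2:71872974-71873223 (plus strand) for Pdk1, chr11:78322823-78323072 (plus) for Aldoc, chr4:149166706-149166955 (minus) for Pgd, chr19:41911621-41911870 (plus) for Pgam1 and chrX:106186850-106187099 (plus) for Pgk1. Capitals mark ACGTG or GCGTG, the core letters that HIF can bind, on either strand; ACGTG also lies inside CACGTG, the E-box that MYC can bind.
Pdk1: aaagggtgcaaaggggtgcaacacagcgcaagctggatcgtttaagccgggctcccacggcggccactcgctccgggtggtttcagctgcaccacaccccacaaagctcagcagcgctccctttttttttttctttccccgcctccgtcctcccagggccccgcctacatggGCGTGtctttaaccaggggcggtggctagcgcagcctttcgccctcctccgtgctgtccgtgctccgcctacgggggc
Aldoc: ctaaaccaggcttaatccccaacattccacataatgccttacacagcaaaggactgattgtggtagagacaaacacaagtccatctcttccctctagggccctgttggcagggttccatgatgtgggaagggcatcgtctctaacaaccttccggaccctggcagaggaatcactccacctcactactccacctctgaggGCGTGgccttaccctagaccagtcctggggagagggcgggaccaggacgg
Pgd: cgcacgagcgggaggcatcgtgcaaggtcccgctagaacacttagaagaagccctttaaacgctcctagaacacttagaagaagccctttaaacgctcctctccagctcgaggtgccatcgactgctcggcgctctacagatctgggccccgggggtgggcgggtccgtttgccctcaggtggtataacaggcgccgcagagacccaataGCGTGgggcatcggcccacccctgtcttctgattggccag
Pgam1: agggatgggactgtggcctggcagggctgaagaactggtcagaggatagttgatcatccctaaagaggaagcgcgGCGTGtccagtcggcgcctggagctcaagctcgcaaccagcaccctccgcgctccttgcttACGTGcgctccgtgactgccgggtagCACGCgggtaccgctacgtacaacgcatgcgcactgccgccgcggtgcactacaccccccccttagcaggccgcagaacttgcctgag
Pgk1: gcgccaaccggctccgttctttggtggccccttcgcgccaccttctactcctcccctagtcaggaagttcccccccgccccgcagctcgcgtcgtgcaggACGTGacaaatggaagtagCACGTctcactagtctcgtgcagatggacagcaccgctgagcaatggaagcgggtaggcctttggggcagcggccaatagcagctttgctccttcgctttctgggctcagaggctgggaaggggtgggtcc

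Promoter windows were found for 34 of the 35 genes, and for 1 or more starts 29 of them (85.3%) held ACGTG or GCGTG, against 41.5% of 27025 genes with windows of the same length. ACGTG was present for 13 genes (38.2%, against 18.5%), GCGTG for 22 (64.7%, against 30.9%) and CACGTG for 5 (14.7%, against 6.86%). In the windows farthest upstream, Pdk1, Aldoc and Pgd each had 1 copy, all GCGTG, while Pgam1 had 3 copies of both kinds and Pgk1 had 2 of ACGTG. The median GC content was 58.8% for the members' windows farthest upstream, 1 per gene, and 52.4% for all windows of all genes, with every start counted. These medians are thus over unlike sets of windows. Both motifs contain CG. Such a match is a description of the letters and not a binding site.

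The plot of levels shows each array. Levels of different probe sets are not compared as amounts, because probe sets differ in how strongly they report their RNA.

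**Figure D2:**
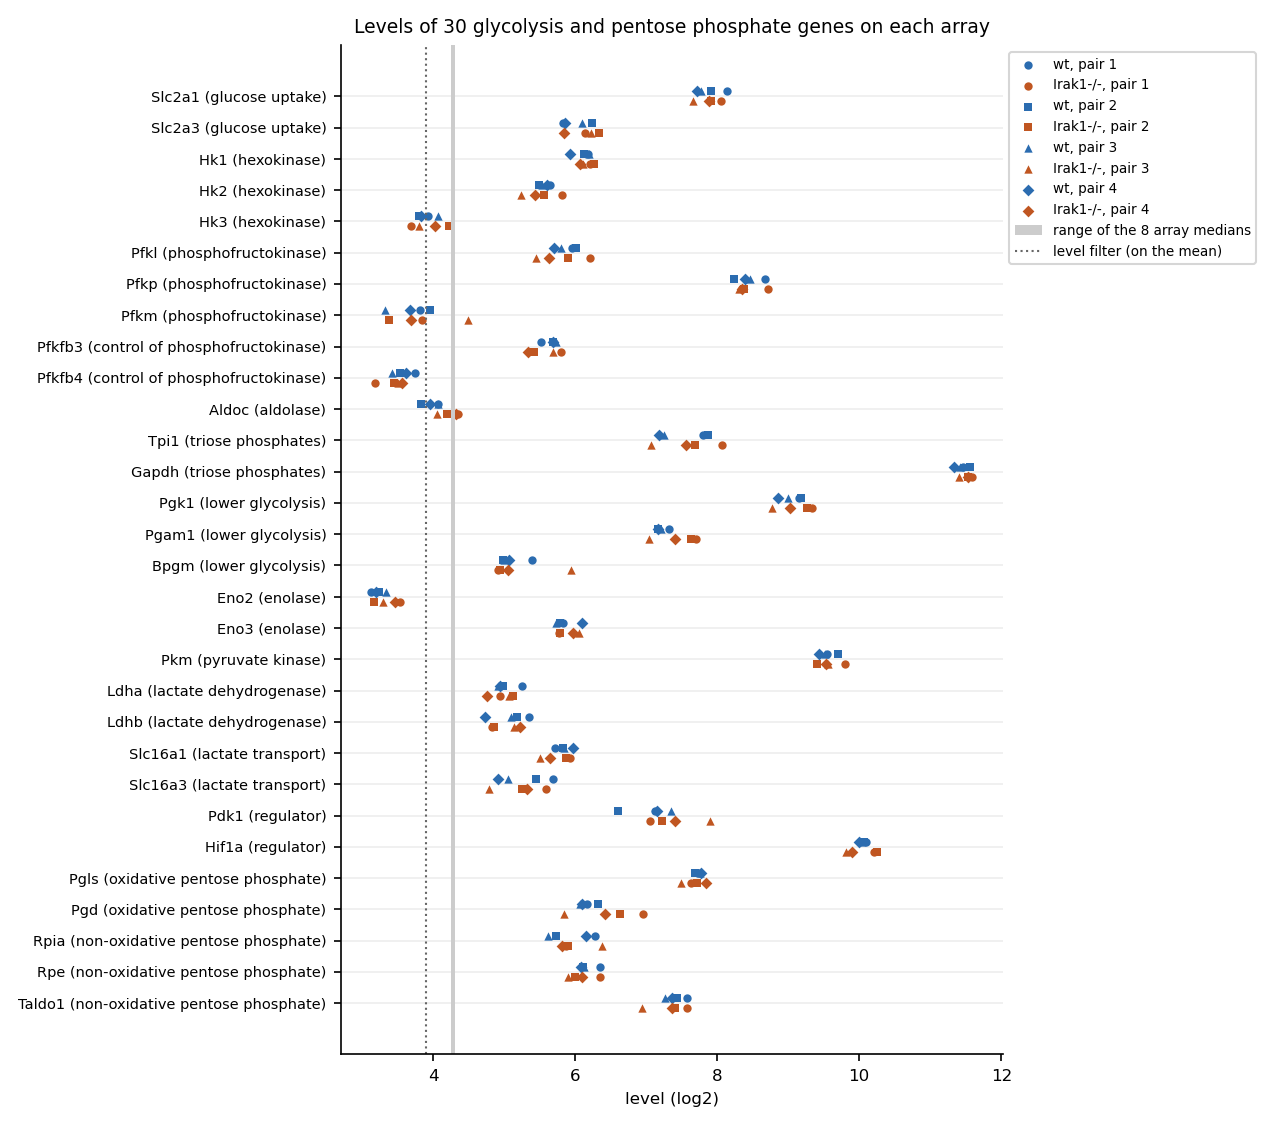
Levels of the 30 measured genes on each of the 8 arrays, in log2 units, ordered by step of the pathway. Blue symbols are wt, orange are Irak1-/-, symbol shapes mark the pairs, the grey band spans the array medians of 4.25 to 4.31, and the dotted line is the level filter of 3.90; the 2 groups overlap for every gene.

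Neither glucose transporter passed the test. Slc2a1, which encodes GLUT1, read 8.14, 7.91, 7.77 and 7.72 on the wt arrays of replicates 1 to 4 and 8.06, 7.92, 7.66 and 7.89 on the Irak1-/- arrays. Both groups spanned nearly the same range, and replicate 1 was the highest in each. The difference was -0.01 (SE 0.108, adjusted p = 0.995), and it turned to 0.00 with quantile normalization. The other probe set of Slc2a1, 17429307, with a mean level of 4.52, gave 0.40, -0.25, 0.63 and 0.38 in pairs 1 to 4. Slc2a3, which encodes the high-affinity transporter GLUT3, read 5.83, 6.24, 6.09 and 5.85 in wt and 6.14, 6.33, 6.22 and 5.84 in Irak1-/- cells. It was higher in 3 of 4 pairs, by a fitted 0.13 (SE 0.109, adjusted p = 0.908).

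Hexokinases trap glucose in the cell by phosphorylation. Hk1, the widely expressed isoform, read 6.18, 6.12, 6.20 and 5.93 in wt and 6.21, 6.26, 6.11 and 6.07 in Irak1-/- cells, with a difference of 0.05 (SE 0.107, adjusted p = 0.957). Hk2, the inducible isoform, read 5.64, 5.49, 5.54 and 5.60 in wt and 5.81, 5.56, 5.24 and 5.44 in Irak1-/- cells. Its wt values lay inside the Irak1-/- range, and the difference was -0.05 (SE 0.120, adjusted p = 0.960), or 0.03 without pair 3. Hk3, an isoform of myeloid cells, lay under every array median, at 3.92, 3.81, 4.07 and 3.83 in wt and 3.69, 4.22, 3.81 and 4.02 in Irak1-/- cells. Its difference was 0.03 (SE 0.141, adjusted p = 0.987).

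Phosphofructokinase catalyses the committed step, and its subunits come from 3 genes of the list. Pfkl, the liver type, read 5.96, 6.02, 5.80 and 5.71 in wt and 6.21, 5.90, 5.45 and 5.63 in Irak1-/- cells. Pfkp, the platelet type, read 8.67, 8.24, 8.46 and 8.40 in wt and 8.71, 8.38, 8.30 and 8.34 in Irak1-/- cells. The groups overlapped for both, with differences of -0.07 (SE 0.125, adjusted p = 0.952) and -0.01 (SE 0.108, adjusted p = 0.993). Pfkm, the muscle type, was under the filter, at 3.32 to 3.96 in wt cells and 3.37 to 4.495 in Irak1-/- cells. Pfkfb3, which makes the activator of phosphofructokinase, read 5.53, 5.69, 5.72 and 5.68 in wt and 5.80, 5.42, 5.68 and 5.33 in Irak1-/- cells. It was lower in 3 of 4 pairs, by a fitted difference of -0.10 (SE 0.131, adjusted p = 0.947). It was -0.22 without pair 1, -0.04 without pair 2 and -0.01 without pair 4. Pfkfb4, of the same family, was under the filter at 3.18 to 3.75.

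Aldoc, the brain-type aldolase that splits the sugar into triose phosphates, came close to separated groups, at low levels. It read 4.07, 3.84, 4.07 and 3.95 in wt and 4.35, 4.19, 4.06 and 4.32 in Irak1-/- cells. All but the Irak1-/- array of replicate 3 lay above every wt array. The difference was 0.25 (SE 0.115, adjusted p = 0.778), all wt values lay under the array medians, and no background level accompanies the arrays to set these values against.

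None of the 3 enzymes of the triose steps measured here passed the test. Tpi1, triose phosphate isomerase, ran from 7.19 to 7.87 in wt cells, with replicates 1 and 2 at 7.79 and 7.87 and replicates 3 and 4 at 7.25 and 7.19. The Irak1-/- values were 8.07, 7.69, 7.07 and 7.57, and the difference between genotypes was 0.08 (SE 0.134, adjusted p = 0.952). Gapdh, the dehydrogenase often used as a reference gene, ran from 11.34 to 11.56 in wt and 11.40 to 11.59 in Irak1-/- cells, with a difference of 0.07 (SE 0.107, adjusted p = 0.950). The probe set 17439361 gave 0.06, and another, 17546512, with a mean level of 4.20, was higher in all 4 pairs by a mean of 0.28; the mean of the 3 gave 0.14. Gapdh has many near-identical pseudogenes in the mouse, and which copies its probe sets read is not known here. Pgk1, the first ATP-making kinase, ran from 8.86 to 9.19 in wt and from 8.78 to 9.34 in Irak1-/- cells, with a difference of 0.05 (SE 0.115, adjusted p = 0.960). The mean of the 2 arrays of a pool was 7.93, 7.78, 7.16 and 7.38 for Tpi1 in pools 1 to 4, a range of 0.77.

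Pgam1, phosphoglycerate mutase, gave opposite differences on its 2 probe sets. The probe set used, 17404152, read 7.32, 7.17, 7.21 and 7.16 in wt and 7.70, 7.63, 7.05 and 7.41 in Irak1-/- cells. The Irak1-/- values lay above all wt values in replicates 1, 2 and 4 and under all of them in replicate 3, with a difference of 0.23 (SE 0.130, adjusted p = 0.8293). Its other probe set, 17359466, had a mean level of 4.54 and was lower in all 4 pairs, by a mean difference of -0.26. The mean of both probe sets gave -0.01, and which copies of the gene each reads is not known here. Bpgm, which makes the bisphosphoglycerate of red cells, lay at 4.99 to 5.40 in wt and at 4.91, 4.94, 5.95 and 5.05 in Irak1-/- cells, so that the array of replicate 3 stood above all others. Its difference was 0.10 (SE 0.205, adjusted p = 0.957), or -0.18 without pair 3.

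The genes tested at the last steps showed no difference beyond the spread of the arrays. Eno1, another enolase gene of the list, matched no annotated probe set, so the enolase step was covered only in part. Eno3, the muscle-type enolase, read 5.83, 5.78, 5.73 and 6.09 in wt and 5.77, 5.78, 6.06 and 5.97 in Irak1-/- cells, with a difference of 0.04 (SE 0.118, adjusted p = 0.974), or -0.06 without pair 3. Eno2, the neuronal enolase, was under the filter at 3.13 to 3.54. Pkm ran from 9.44 to 9.70 in wt and from 9.41 to 9.80 in Irak1-/- cells, with a difference of 0.02 (SE 0.123, adjusted p = 0.985), and its probe set does not tell its splice forms apart here.

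Lactate dehydrogenase turns pyruvate into lactate, with Ldha and Ldhb encoding its subunits. Ldha read 5.26, 4.98, 4.91 and 4.94 in wt and 4.95, 5.13, 5.07 and 4.76 in Irak1-/- cells. Ldhb read 5.35, 5.18, 5.10 and 4.73 in wt and 4.82, 4.86, 5.15 and 5.22 in Irak1-/- cells. The pairs were split 2 to 2 for both genes, with differences of -0.05 (SE 0.123, adjusted p = 0.966) and -0.08 (SE 0.166, adjusted p = 0.960).

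Lactate leaves the cell through monocarboxylate transporters. Slc16a1, which encodes MCT1, read 5.71, 5.82, 5.84 and 5.97 in wt and 5.93, 5.87, 5.50 and 5.65 in Irak1-/- cells. Slc16a3, which encodes MCT4, read 5.69, 5.45, 5.06 and 4.92 in wt and 5.59, 5.25, 4.79 and 5.32 in Irak1-/- cells. Differences were -0.10 (SE 0.130, adjusted p = 0.947) for Slc16a1 and -0.04 (SE 0.135, adjusted p = 0.974) for Slc16a3. Like Tpi1, Slc16a3 varied between pools, with wt arrays of replicates 1 and 2 above those of 3 and 4.

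Pdk1 had the largest difference and the smallest p of the list. Its product phosphorylates pyruvate dehydrogenase and so keeps pyruvate out of the mitochondria. On probe set 17548205 it read 7.12, 6.60, 7.35 and 7.15 in wt and 7.06, 7.22, 7.90 and 7.41 in Irak1-/- cells. The Irak1-/- array was higher in 3 of 4 pairs, by 0.62, 0.55 and 0.25 in pairs 2, 3 and 4, and differed by -0.06 in pair 1. The lowest wt value was that of replicate 2 and the highest Irak1-/- value that of replicate 3, and the groups overlapped. The fitted difference was 0.34 (SE 0.137), a 1.27-fold level with a 95% confidence interval of 1.02 to 1.57, and the limma adjusted p was 0.708. Without pairs 1, 2, 3 and 4 in turn it was 0.47, 0.25, 0.27 and 0.37. An unpaired fit that dropped only the Irak1-/- array of replicate 3 gave 0.17 (adjusted p = 0.992). The other probe set of Pdk1, 17371847, with a mean level of 5.99, gave -0.04, -0.21, 0.78 and 0.35 in pairs 1 to 4. With the mean of both probe sets the difference was 0.28, and the unadjusted limma p was 0.0665.

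Hif1a ran from 9.995 to 10.10 in wt and from 9.81 to 10.26 in Irak1-/- cells. The Irak1-/- arrays of replicates 1 and 2 lay above all wt arrays and those of replicates 3 and 4 under all of them. The difference was -0.00 when rounded (SE 0.116, adjusted p = 0.996), with 2 of 4 pairs higher, and its second probe set gave the same signs in all pairs.

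In the oxidative arm of the pentose phosphate pathway, Pgd had the second largest difference of the list. It encodes phosphogluconate dehydrogenase, which makes NADPH. It read 6.17, 6.33, 6.07 and 6.10 in wt and 6.95, 6.63, 5.84 and 6.42 in Irak1-/- cells. As for Pgam1, the Irak1-/- arrays of replicates 1, 2 and 4 lay above all wt arrays and that of replicate 3 under all of them. The difference was 0.29 (SE 0.159, adjusted p = 0.812), and 0.13 without pair 1, whose own difference was 0.79. Pgls, the lactonase before it, read 7.75, 7.69, 7.75 and 7.78 in wt and 7.63, 7.71, 7.49 and 7.85 in Irak1-/- cells, with a difference of -0.07 (SE 0.111, adjusted p = 0.950).

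In the non-oxidative arm, the 3 genes measured did not pass either. Taldo1, transaldolase, read 7.58, 7.43, 7.26 and 7.36 in wt and 7.57, 7.40, 6.94 and 7.36 in Irak1-/- cells, and the pairs were nearly equal except for pair 3, with -0.33. Rpe, the ribulose phosphate epimerase, read 6.35, 6.12, 6.13 and 6.08 in wt and 6.35, 6.00, 5.89 and 6.10 in Irak1-/- cells. Differences were -0.09 (SE 0.112, adjusted p = 0.942) for Taldo1 and -0.08 (SE 0.107, adjusted p = 0.945) for Rpe. Rpia, the ribose phosphate isomerase, ran from 5.62 to 6.28 in wt and from 5.81 to 6.38 in Irak1-/- cells, with a difference of 0.04 (SE 0.188, adjusted p = 0.984), or -0.20 without pair 3.

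Pair 3 differed from the rest across the list. In it 8 of 27 members were higher in the Irak1-/- array, with a median of -0.16, while in pairs 1, 2 and 4 there were 15, 16 and 16, with medians of 0.04, 0.05 and 0.07. Over all genes 42.5% were higher in pair 3, 42.7% in pair 2, 49.5% in pair 1 and 50.2% in pair 4. A low median in pair 3 was not particular to the list. It was -0.16 for CD4 T cell markers and, in related lists described below, -0.18 for regulators of glycolysis and -0.14 for further pentose phosphate and NADPH genes. Genes of pyruvate entry had -0.12, other HIF targets -0.10, other isoforms -0.001 and serine and one-carbon genes 0.02. The Irak1-/- array of replicate 3 held the lowest of the 8 values for 13 members (48.1%, against 29.3% of all genes), among them Slc2a1, Hk2, Tpi1, Pgk1, Pgd and Taldo1. It held the highest for 3, namely Pdk1, Bpgm and Rpia. The Irak1-/- array of replicate 1 held the highest value for 11 members (40.7%, against 15.6%). With pair 3 left out, 3 members reached an unadjusted p under 0.05, namely Pgd at 0.47, Aldoc at 0.34 and Pgam1 at 0.36. Their adjusted p were 0.601, 0.643 and 0.643, and Pdk1 was no longer among them.

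**Figure D3:**
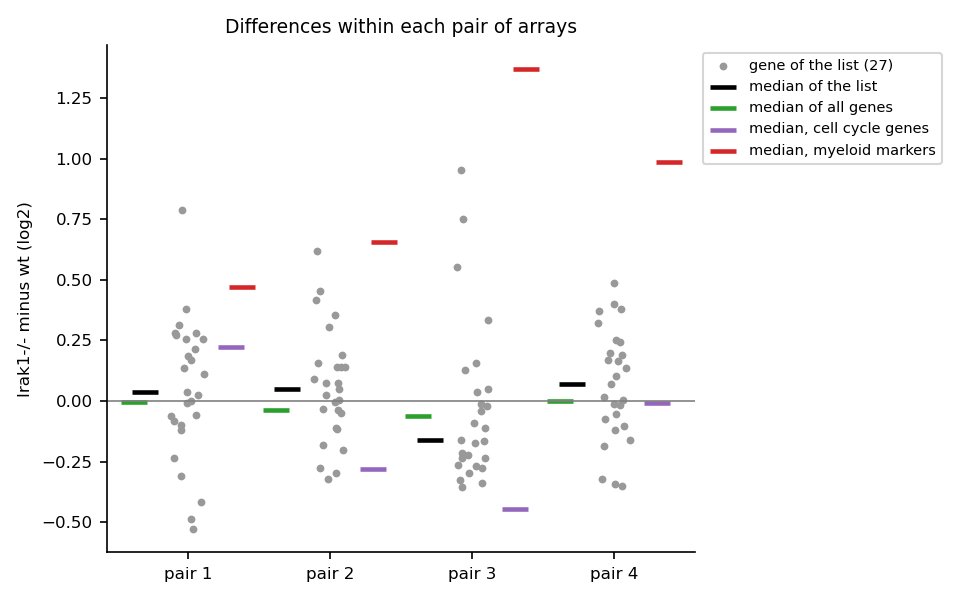
Irak1-/- minus wt differences within each of the 4 pairs, on the log2 scale. Grey points are the 27 genes tested, and bars are medians of the list (black), of all genes (green), of cell cycle genes (purple) and of myeloid markers (red); the list's median is -0.16 in pair 3 and 0.04 to 0.07 in the others, and the myeloid median is above 0 in all 4.

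Markers of other cells and genes of cell division were read in the same pairs. Myeloid markers had a difference above 0 for 15 of 16 tested, and 5 of them were called higher, with mean levels over 17 measured markers of 4.54 to 4.81 on wt and 5.54 to 6.07 on Irak1-/- arrays. Their highest members were Ctss, H2-Ab1 and Tyrobp, with differences of 0.43, 1.77 and 2.47, and the list's medians in pairs 1 to 4 were 0.47, 0.66, 1.37 and 0.99. Markers of NK, innate lymphoid and CD8 T cells had a median difference of -0.39 over 10 tested, with 3 above 0. At an unadjusted p under 0.05, 6 of the 10 were lower, against 6.70% of all genes in either direction. Nkg7, Klrd1 and Klrc1 had -0.26, -0.55 and -0.57, none past the adjusted threshold. Cell cycle genes had medians of 0.22, -0.28, -0.44 and -0.01 over 23 genes in pairs 1 to 4, so their lowest pair was also pair 3. Of the 23, 4 were above 0 and 19 below, with a median difference of -0.11, beside 5570 of all 13308 genes above 0. Pcna, Rrm2 and Ccnb2, the highest of them, had differences of -0.05, 0.22 and -0.19. No cell cycle gene was called, and 1 was lower at an unadjusted p under 0.05. Neutrophil markers S100a8, S100a9 and Cxcr2 had differences of 2.62, 1.05 and 0.08, with 0 of 6 tested past the threshold. The part of these cells and of cell division in the members' values was not tested.

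Other lineages had mean marker levels around or under the array medians, though single markers lay above them. Means in wt and Irak1-/- cells were 7.67 and 7.86 for Ighm, 5.12 and 4.85 for Cd79b, 4.51 and 4.53 for Gp9, 4.34 and 4.40 for Col3a1 and 6.89 and 6.97 for Pecam1. Mean levels over the markers were 3.93 to 4.19 on wt and 3.88 to 4.09 on Irak1-/- arrays for B cells, and 3.61 to 3.79 and 3.55 to 3.75 for red cells and platelets. For stromal and endothelial cells they were 4.23 to 4.45 and 4.02 to 4.42. The highest of these were Ighm, Cd79b and Pax5 for B cells, Gp9, Itga2b and Slc4a1 for red cells and platelets, and Pecam1, Col3a1 and Cdh5 for stroma and endothelium. None of the 14 tested in these 3 lists was called.

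Neighbouring pathways were examined through lists of related genes, and none of the 92 entries tested, with Egln3 in 2 lists, passed the adjusted threshold; 8 had an unadjusted p under 0.05 and a negative difference, and 1 a positive one, or 9.78% against 6.70% of all genes; no test of that share was made. Of 17 other isoforms and glucose-handling genes, 5 were above 0 and the median was -0.08. The smallest p belonged to Gpd2, the mitochondrial glycerol phosphate dehydrogenase, with -0.30 (SE 0.113, adjusted p = 0.660), and G6pc3, a glucose phosphatase, with -0.25 (SE 0.111, adjusted p = 0.746). Both were lower in 4 of 4 pairs, an agreement favoured by naming genes for their small p, here and in the lists below.

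Of 10 genes that carry pyruvate into mitochondria and its oxidation, 3 were above 0 and the median was -0.04. Mpc1, a subunit of the mitochondrial pyruvate carrier, had -0.43 (SE 0.148, adjusted p = 0.606) and was lower in 4 of 4 pairs, from -0.17 in pair 2 to -0.97 in pair 3. Without pair 3 it was -0.25, and with the mean of its probe sets -0.26. An unpaired fit without only the Irak1-/- array of replicate 3 gave -0.14 for Mpc1. Pdp2, a phosphatase that activates pyruvate dehydrogenase, had -0.26 (SE 0.112, adjusted p = 0.741), also lower in 4 of 4 pairs. Pdk1, the kinase of that complex described above, had 0.34, and none of these 3 differences passed.

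Among 11 further pentose phosphate and NADPH genes the median was -0.07. Shpk, sedoheptulokinase, had -0.31 (SE 0.107, adjusted p = 0.619) and was lower in 4 of 4 pairs, at low mean levels of 4.76 on wt and 4.45 on Irak1-/- arrays. Idh1, an NADPH-making isocitrate dehydrogenase, had -0.18 (SE 0.115, adjusted p = 0.862), or -0.10 without pair 3. In an unpaired fit without only the Irak1-/- array of replicate 3, Idh1 had 0.05. Serine and one-carbon genes, which draw on a glycolytic intermediate, had a median of 0.01 over 9 tested. Phgdh, the entry enzyme of that branch, had -0.25 (adjusted p = 0.866) and Shmt2, a mitochondrial hydroxymethyltransferase, 0.15 (adjusted p = 0.910). Single pairs moved both: Phgdh had -0.06 without pair 3 and -0.40 without pair 1, and Shmt2 had 0.02 without pair 1 and 0.27 without pair 2. In the unpaired fit without only the Irak1-/- array of replicate 3, Shmt2 had 0.26.

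Of 28 regulators of glycolysis, 12 were above 0 and the median was -0.03. Epas1, which encodes the related subunit HIF-2 alpha, was at 6.48 ± 0.150 (SD, n = 4) on wt and 6.01 ± 0.467 on Irak1-/- arrays and was lower in 4 of 4 pairs, with a difference of -0.47 (SE 0.143, adjusted p = 0.535). Dropping pair 3 gave -0.31 for Epas1, and an unpaired fit without only the Irak1-/- array of replicate 3 gave -0.26. Bhlhe40, a repressor induced in effector T cells, read 10.16 ± 0.0587 and 9.80 ± 0.297 and was also lower in 4 of 4 pairs. Its difference was -0.35 (SE 0.131, adjusted p = 0.655), or -0.22 in the unpaired fit without that array and -0.24 without pair 3. Of 17 other HIF targets, 8 were above 0 and the median was -0.04. Vegfa, the endothelial growth factor, had mean levels of 4.41 on wt and 4.75 on Irak1-/- arrays, near the array medians of 4.25 to 4.31. It was higher in 4 of 4 pairs, with 0.35 (SE 0.123, adjusted p = 0.634), and Narf had 0.30 (SE 0.148, adjusted p = 0.792). In the unpaired fit without the Irak1-/- array of replicate 3, Vegfa had 0.17. Narf had 0.16 without pair 3 and 0.45 without pair 1.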

How the data were processed

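Gene expression was measured on 8 Affymetrix arrays, 4 of wt and 4 of Irak1-/- T cells. Values of 41345 probe sets were deposited by the authors as log2 levels. How background was corrected and how probes were summarized and normalized is not stated in the labels, and arrays have no depth, so their number limits the precision. The platform annotation named 1 gene for 23521 probe sets, several for 1814 and none for 16010; symbols of 23328 were updated by gene identifier through the RefSeq table of GRCm38.p6, and promoter sequences come from RefSeq.

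Genes with a mean level at or above the 40th percentile entered a linear model in limma 3.58.1 under R 4.3.3 (lmFit, eBayes), with the batch label as a block, two-sided, and p-values were adjusted over 13308 genes by the Benjamini-Hochberg method. Arrays of a pair share a batch label and come from a cotransfer into the same recipients, per the labels; their deviations from the group means correlated at 0.185, 0.143, 0.200 and 0.0799. The fit was tested on simulated data. No 2 arrays were duplicates, with at most 0.237% identical values.

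Members, lists and tests were chosen with earlier results of these data known. Members with the 10 smallest p, isoforms above the filter and any member with separated groups have each value given; of each related list the 2 genes with the smallest p, and of each marker list the 3 with the highest mean, are named. The bounds of 1.25-fold and 1.5-fold and the promoters shown were chosen after the values were seen. The fit was repeated unpaired, with batch as a random block, after quantile normalization or centring on array medians, with all genes or those above the 60th percentile, with probe sets averaged or each tested, with eBayes set to trend and robust, and with arrays left out.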

Additional observations from a re-analysis of the deposited data

Results flagged for a closer look

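Within groups of 4 arrays, 2 of 54 groups held a value apart from the other 3, and chance flags about 1 in 20 groups. Both were on the Irak1-/- array of replicate 3. Bpgm read 5.95 there, against 4.91 to 5.05 on the other Irak1-/- arrays. Rpia read 6.38 there, against 5.81 to 5.89 on the other Irak1-/- arrays.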

How the results depend on the processing

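Under all 14 alternatives 0 members were called, and the smallest adjusted p was 0.601. The members' median difference stayed between -0.00 and 0.05. Of 376 recomputed member differences, 340 kept their sign and 36 turned, none larger in size than 0.23 before it turned; 11 members kept their sign throughout. The number of members at an unadjusted p under 0.05 ran from 0 to 3.

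The pairing was tested by a fit without the replicate block, in which 0 members were called, the smallest adjusted p was 0.968 and the median difference was 0.02. With the mean of a gene's probe sets, Pgam1 turned to -0.015, Hif1a to 0.020 and Slc2a1 to 0.14, and with quantile normalization Slc2a1 turned to 0.0013.

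With arrays left out, differences that turned ranged from -0.18 to 0.30 for Bpgm, from -0.060 to 0.091 for Eno3, from -0.070 to 0.072 for Hif1a, from -0.13 to 0.037 for Hk2 and from -0.10 to 0.12 for Hk3. They ranged from -0.12 to 0.038 for Ldha, from -0.27 to 0.072 for Ldhb, from -0.18 to 0.046 for Pfkl, from -0.059 to 0.041 for Pfkp and from -0.053 to 0.13 for Pkm. They ranged from -0.20 to 0.19 for Rpia, from -0.19 to 0.10 for Slc16a3, from -0.064 to 0.069 for Slc2a1, from -0.12 to 0.037 for Taldo1 and from -0.025 to 0.25 for Tpi1. Among the related genes, Idh1 ranged from -0.24 to 0.049. Of the other members, whose sign held with arrays left out, differences ran from 0.17 to 0.47 for Pdk1, from 0.21 to 0.34 for Aldoc, from 0.13 to 0.50 for Pgd, from 0.15 to 0.36 for Pgam1, from 0.069 to 0.18 for Slc2a3 and from -0.12 to -0.019 for Rpe. They ran from -0.20 to -0.019 for Slc16a1, from -0.22 to -0.015 for Pfkfb3, from -0.12 to -0.0089 for Pgls, from 0.027 to 0.11 for Gapdh, from 0.023 to 0.10 for Hk1 and from 0.0081 to 0.16 for Pgk1. Of these, all but Aldoc moved by over 1.5 times when 1 pair or the Irak1-/- array of replicate 3 was left out. The fit without that array alone was unpaired. The cause was not tested.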
